A study of Mus musculus with 59 samples.

Results

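The genes described here are 34 genes of the response to low oxygen and of glycolysis, out of the 45706 genes listed in every library. They were chosen by symbol for what they are known to do, with earlier results of these data known. Each symbol matched 1 mouse Ensembl gene. They are read in all 7 groups of a cell line and all 8 groups of primary cells, as counts scaled to library size (CPM, with TMM factors). In the cell line 30 of them had enough reads to be tested, and Ak4, P4ha2, Slc16a3 and Aldoc did not. In primary cells all 34 were tested.

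The study followed TCF-1, the DNA-binding protein made from Tcf7, which steers progenitors into the T cell lineage, and altered forms of it. The cell line was scid.adh, which resembles early T cells, with Tcf7 knocked out in every group, the controls included. It received a retrovirus without an insert (EV), with full-length TCF-1 (WT) or with a form named DL1, DL2, DL6, DL7 or DHMG, and transduced cells were sorted 72 h later. The labels do not define these forms; the names are read here as deletions of numbered segments of the protein and, for DHMG, of the HMG box that binds DNA. Primary cells grew from bone marrow progenitors of Tcf7eGFP fl/fl Cre+ mice, so Tcf7 was deleted in all of them. They carried EV, P45 (a name that the cell line labels give to the full-length form), L1d, L7d or HMGd. After 7 days of culture over OP9-DLL1 feeder cells, which supply a Notch signal, they were sorted as DN1 cells (c-Kit high, CD44 high, CD25 low) or DN2 cells (c-Kit low, CD25 high). DN2 cells were read with P45, L1d and L7d only. Each group had 2 replicates, a library in the line and the summed libraries of 1 replicate number in primary cells. The age of the mice, the promoter that drives Cre, and whether the knockout line is a single clone are not given in the sources used here. The labels do not tell whether replicates came from separate cultures or animals. Their p-values reflect the spread among these samples only, which may be technical.

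When oxygen is scarce, prolyl hydroxylases stop marking the hypoxia-inducible factor (HIF) for destruction, and it binds short ACGTG or GCGTG elements in its target genes. The targets bring in glucose, speed glycolysis, send pyruvate to lactate instead of the mitochondria, and include the prolyl hydroxylases themselves, which makes a feedback loop. Dividing T cell precursors use much glucose in normal oxygen too, and glycolysis genes are also driven by growth signals such as Myc. Oxygen and cell density of these cultures are not given in the sources used here.

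The promoter windows below belong to the 6 members with the largest change between WT and EV in the cell line among those called and listed in the RefSeq promoter table (GRCm38.p6). They are shown because these members moved with the TCF-1 construct, and each runs from 250 bases before to 50 bases after the listed start, 5′ to 3′ on the gene's strand. Capitals mark the core letters of the HIF element, ACGTG or GCGTG, read on either strand (CACGT and CACGC are the same elements on the other strand). Mxi1 and Kdm3a have 3 listed windows each and Pfkfb3 has 2, of which 1 is shown.
Bnip3, chr7:138909457-138909756, minus strand: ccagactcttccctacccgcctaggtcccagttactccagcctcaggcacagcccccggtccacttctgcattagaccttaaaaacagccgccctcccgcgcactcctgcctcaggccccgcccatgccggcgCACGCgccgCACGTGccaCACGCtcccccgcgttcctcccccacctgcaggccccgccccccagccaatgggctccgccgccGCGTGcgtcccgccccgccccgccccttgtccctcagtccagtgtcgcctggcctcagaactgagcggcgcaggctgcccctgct
Ankrd37, chr8:45999801-46000100, minus strand: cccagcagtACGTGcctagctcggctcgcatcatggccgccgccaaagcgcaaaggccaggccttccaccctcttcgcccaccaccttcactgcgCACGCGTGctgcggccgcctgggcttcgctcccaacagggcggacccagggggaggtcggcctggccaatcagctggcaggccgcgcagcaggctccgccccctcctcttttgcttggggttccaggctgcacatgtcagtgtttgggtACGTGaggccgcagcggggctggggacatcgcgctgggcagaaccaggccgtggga
Mxi1, chr19:53310256-53310555, plus strand: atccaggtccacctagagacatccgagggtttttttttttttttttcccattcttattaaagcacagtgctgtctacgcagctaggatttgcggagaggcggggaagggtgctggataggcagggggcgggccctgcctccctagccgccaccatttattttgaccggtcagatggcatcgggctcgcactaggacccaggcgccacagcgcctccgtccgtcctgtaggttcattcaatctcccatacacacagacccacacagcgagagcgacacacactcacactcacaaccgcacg
Pfkfb3, chr2:11553880-11554179, minus strand: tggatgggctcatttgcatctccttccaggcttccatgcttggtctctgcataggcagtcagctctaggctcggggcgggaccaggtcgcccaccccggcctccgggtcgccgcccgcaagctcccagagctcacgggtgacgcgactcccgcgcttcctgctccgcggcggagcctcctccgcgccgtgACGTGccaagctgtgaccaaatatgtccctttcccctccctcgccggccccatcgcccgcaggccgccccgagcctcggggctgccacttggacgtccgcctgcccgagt
Slc2a1, chr4:119108495-119108794, plus strand: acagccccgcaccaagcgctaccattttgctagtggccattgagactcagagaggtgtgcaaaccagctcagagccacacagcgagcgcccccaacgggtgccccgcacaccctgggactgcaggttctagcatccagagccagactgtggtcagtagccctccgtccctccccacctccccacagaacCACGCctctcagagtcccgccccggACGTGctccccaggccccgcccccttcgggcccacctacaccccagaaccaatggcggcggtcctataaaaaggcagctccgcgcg
Kdm3a, chr6:71632868-71633167, minus strand: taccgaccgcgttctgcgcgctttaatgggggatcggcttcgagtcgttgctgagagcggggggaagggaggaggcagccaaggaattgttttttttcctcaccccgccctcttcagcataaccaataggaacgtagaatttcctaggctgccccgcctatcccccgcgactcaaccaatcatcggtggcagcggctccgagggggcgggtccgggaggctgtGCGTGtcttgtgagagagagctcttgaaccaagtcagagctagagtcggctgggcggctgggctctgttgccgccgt

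Bnip3 held 2 ACGTG and 3 GCGTG matches, 1 of the first 2 being the other strand of a palindromic CACGTG. Ankrd37 held 2 of each, Slc2a1 held 1 of each, Pfkfb3 held 1 ACGTG and Kdm3a held 1 GCGTG. The Mxi1 window shown held neither. With 1 window a gene, ACGTG stood in 17 of the 31 members matched in the table (54.8%) and in 19.7% of 27025 genes. GCGTG stood in 19 members (61.3%) and in 32.5% of genes, and either in 24 members (77.4%) and in 43.8% of genes. CTTTGA, core letters of the element that TCF-1 binds, stood in 2 members (6.45%) and in 16.2% of genes, and CACGTG, which contains ACGTG, in 2 members and 7.24% of genes. Counted over any listed window of a gene, CTTTGA stood in 5 members (16.1%) and in 18.2% of genes, ACGTG in 23 members (74.2%) and 21.8%, GCGTG in 22 members (71%) and 35.2%, and CACGTG in 4 members (12.9%) and 8.09%. These are matches of letters and not sites shown to be bound. The members were chosen as genes of low oxygen and glycolysis, so a higher share of ACGTG or GCGTG was partly set by that choice. Members and all genes were not matched for GC content, which was 56% (Mxi1) to 71.7% (Bnip3) in the windows shown. The part of GC content in these shares was not tested. Ndrg1, Bnip3l and Slc2a3 were not matched in the table.

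Reads in genes ranged from 3.82 to 9.48 M per library of the line and from 9.06 to 34.39 M per primary replicate. Tcf7 RNA was 3.17 to 6.72 times the EV level with the 6 constructs in the line and 170 to 234 times in DN1 cells, and in EV itself Tcf7 was at 565 and 551 CPM in the line and at 3.33 and 4.26 in DN1 cells. The 2 DHMG libraries stood apart from the other 12 of the line, with 8.49% to 8.56% of stranded reads on the opposite strand against 5.44% to 5.83%, and 29.69% to 29.71% ribosomal RNA against 15.76% to 25.09%. Kdm5d, a Y chromosome gene, was at 1.31 and 0 CPM in them and at 11.1 and 12.8 in EV. Reads not counted in genes made up 73.7% and 73.9% with DHMG and 65.9% to 70.4% in the other 12. The names under which counts of the line were deposited carry a run number for those 12 and none for the 2 of DHMG. The 2 DL1 libraries had the lowest mitochondrial share, 10.8% and 11.7% against 16% to 20.7% in the other 12, and the lowest ribosomal share, 15.8% and 16.3%. The part of these differences in the DHMG and DL1 results below was not tested. Markers of 17 T lineage genes summed to 5777 to 6758 CPM in the line, 103 to 127 in DN1 and 555 to 1712 in DN2. Of the defining markers, Cd3e and Ptcra stayed below 1 CPM in every primary replicate, while Il2ra (CD25) was 0.425 to 3.42 CPM in DN1 and 373 to 1278 in DN2. Kit RNA went against the c-Kit gates, at 93.2 to 114 CPM in DN1 and 261 to 308 in DN2, and the labels give DN2 both as CD44 low and as CD44 positive. Granulocyte and monocyte genes, 18 in all, summed to 18904 to 42523 CPM in DN1 and 1402 to 5301 in DN2, against 3.1 to 19.5 in the line, where Elane was at 0 in all 14 libraries. Cells were stained for CD11b, a myeloid marker, but the gate as described does not say that positive cells were left out. In these bulk samples fewer cells of a type and less RNA per cell cannot be told apart.

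In the cell line most members moved, and they moved both down and up depending on the construct. WT, DL1 and DHMG lay below EV at many members, while DL2, DL6 and DL7 lay above EV. With WT 15 of 30 members were lower than in EV and 1 was higher, beside 12.6% and 12.3% of all 10939 genes tested. With DL1 18 were lower and 2 higher (5.12% and 5.86% of all genes), and with DHMG 21 were lower and 0 higher (7.47% and 9.64%). With DL2 23 were higher and 0 lower (2.36% and 2.71%), with DL6 19 higher and 0 lower (0.704% and 0.795%), and with DL7 19 higher and 0 lower (1.56% and 1.22%). A call is an adjusted p under 0.05 from edgeR's quasi-likelihood test, adjusted by Benjamini-Hochberg over all genes. The standard errors (SE) given below are approximate, taken as the absolute log2 change divided by the square root of that test's F. All 6 comparisons share the 2 EV libraries, so an EV value that is off by chance moves all of them one way.

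The median log2 change of the members against EV was -0.24 with WT, -0.26 with DL1 and -0.35 with DHMG. It was 0.46 with DL2, 0.31 with DL6 and 0.33 with DL7, while the median over all genes was within 0.01 of 0 in each. All 30 members had a positive log2 change in DL2, DL6 and DL7, and 24 had a negative one in WT, 25 in DL1 and 28 in DHMG. DL2 had the highest group mean of 21 of the 30 members and DHMG the lowest of 19. Among genes with a mean of at least 10 CPM the background was little higher, at 15.2% lower with WT and 3.04% higher with DL2. Several counts fell when 1 library was left out. The DL1 total of 20 was 10 without EV replicate 1. The DL6 total of 19 was 11 and 8 without EV replicates 1 and 2, and 10 and 8 without DL6 replicates 1 and 2. The DL7 total of 19 was 10 without EV replicate 2 and 12 without either DL7 replicate. Calls kept with any 1 of the 4 libraries left out numbered 11 of 16 for WT, 9 of 20 for DL1, 16 of 23 for DL2, 7 of 19 for DL6, 9 of 19 for DL7 and 15 of 21 for DHMG.

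**Figure D1:**
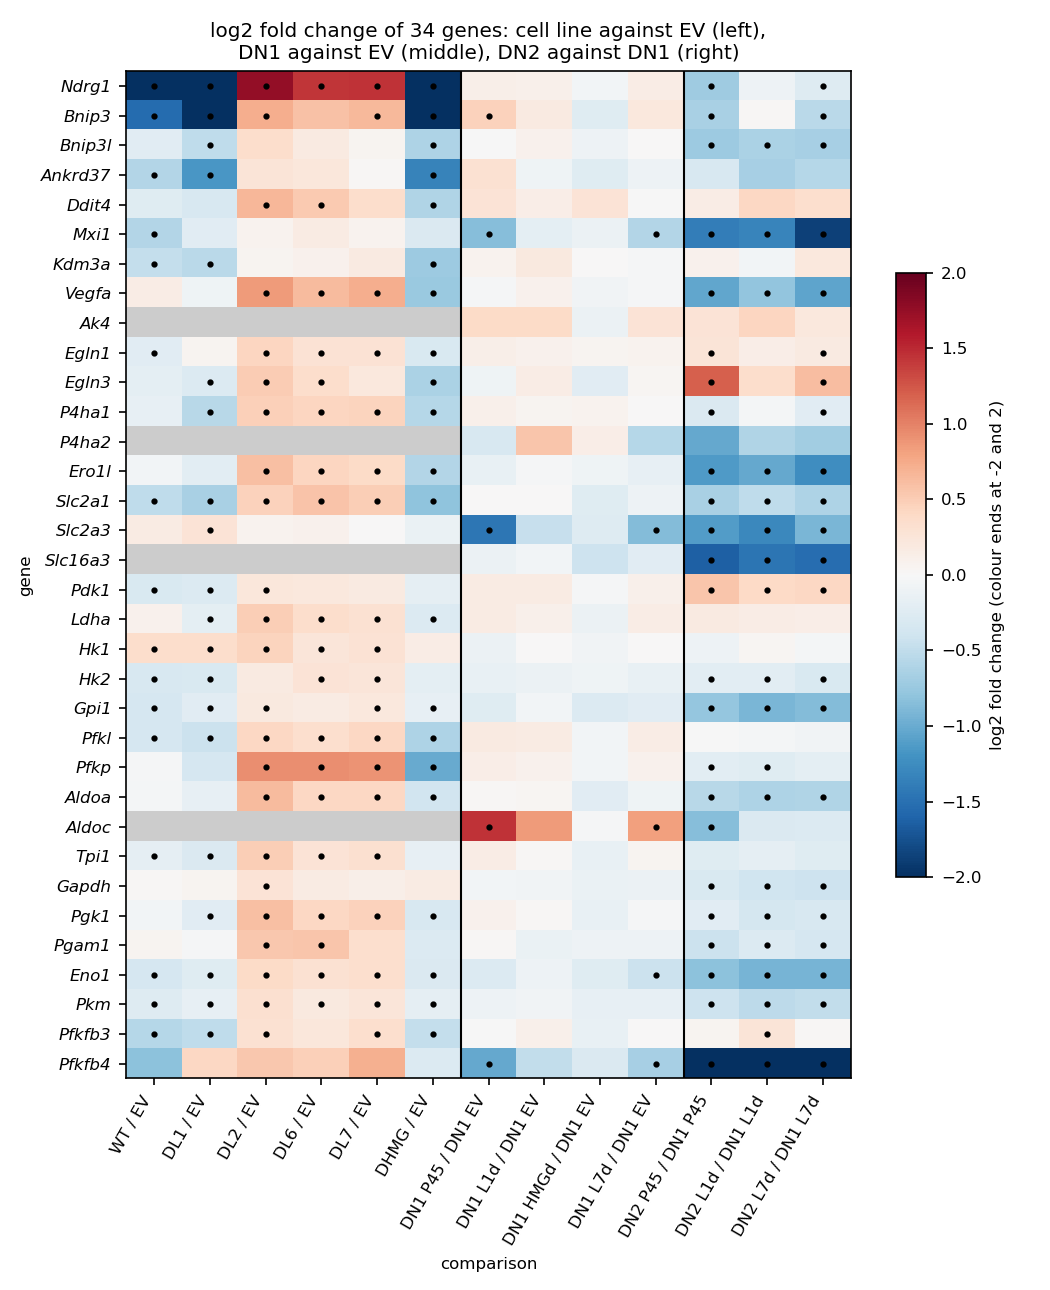
Log2 fold change of each of the 34 genes (rows) in the cell line against EV, in DN1 cells against EV and in DN2 against DN1 cells (columns), from 2 replicates a group. Black dots mark adjusted p under 0.05, grey marks genes with too few reads to test, and colours end at -2 and 2, which Ndrg1 with WT (-3.97), DL1 (-5.08) and DHMG (-8.52), Bnip3 with DL1 (-2.39) and DHMG (-2.61) and Pfkfb4 in all 3 stage comparisons (-2.5, -2.52 and -2.87) exceed. In the line the columns of WT, DL1 and DHMG are mostly blue and those of DL2, DL6 and DL7 red throughout.

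Among the reporter genes of low oxygen, Ndrg1 had by far the widest range. Ndrg1 encodes a stress-responsive protein long used as a readout of hypoxia. It stood at 60.4 and 57 CPM with EV, 3.62 and 3.91 with WT, 1.43 and 2.22 with DL1, and 0 and 0.305 with DHMG. It stood at 194 and 204 CPM with DL2, 159 and 157 with DL6, and 165 and 156 with DL7. No library of any construct overlapped those of EV. Against EV the log2 change was -3.97 with WT (SE 0.15, adjusted p = 2.82e-25), -5.08 with DL1 (SE 0.17, adjusted p = 4.71e-27) and 1.76 with DL2 (SE 0.08, adjusted p = 1.34e-21). It was 1.43 with DL6 and 1.45 with DL7 (both SE 0.08, adjusted p = 7.9e-18 and 1.73e-18). With DHMG a single read was counted in the 2 libraries against 780 with EV, a ratio of 419 with a 95% interval of 74.9 to 16563 that covers counting error only.

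Bnip3, a receptor that marks mitochondria for removal, showed the same order at a lower level. It was at 18.4 and 16 CPM with EV, 5.02 and 7.18 with WT, 3.27 and 3.33 with DL1, and 1.83 and 3.96 with DHMG. With DL2 it was at 28.9 and 28.4, with DL6 at 28.2 and 23.8, and with DL7 at 25.7 and 28.8. Every library of WT, DL1 and DHMG lay below EV and every library of DL2, DL6 and DL7 above it. The falls were called (log2 -1.54 ± 0.2, -2.39 ± 0.23 and -2.61 ± 0.29, each ± SE, adjusted p = 1.02e-07, 7.35e-11 and 2.59e-09). The rises were smaller, at log2 0.73 for DL2 (adjusted p = 0.00336), 0.58 for DL6 (not called, adjusted p = 0.0565) and 0.64 for DL7 (adjusted p = 0.0138). The DL2 call ended without EV replicate 2 or DL2 replicate 1 (adjusted p = 0.0877 and 0.0645) and the DL7 call without any 1 of its 4 libraries (adjusted p = 0.0572 to 0.229).

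Other reporters followed only in part. Ankrd37, an ankyrin repeat gene that HIF induces, was at 14.4 and 18.6 CPM with EV and fell to 10.3 and 11.6 with WT, 8.06 and 6.11 with DL1 and 8.63 and 3.96 with DHMG, and was not called with DL2, DL6 or DL7. Its WT call ended without EV replicate 2 or WT replicate 1 (adjusted p = 0.27 and 0.189). Kdm3a, a histone demethylase, was at 148 and 145 CPM with EV and lower with WT (log2 -0.47, adjusted p = 5.35e-07), DL1 (-0.54) and DHMG (-0.73), and the 3 remaining constructs lay at 151 to 170 CPM without a call.

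Vegfa, the growth factor of blood vessels, went another way. It was at 50 and 46.9 CPM with EV, 55 and 52.8 with WT, 42 and 50.7 with DL1 and 27.2 and 31.4 with DHMG. It reached 87.1 and 88.7 CPM with DL2, 71.7 and 78.7 with DL6 and 83.4 and 76.2 with DL7. WT and DL1 were not called, DHMG was lower (log2 -0.74, SE 0.13, adjusted p = 2.51e-05) and the others higher (log2 0.85, 0.63 and 0.72, adjusted p = 1.13e-08, 3.28e-05 and 6.3e-07).

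Ddit4, an inhibitor of mTOR complex signalling, rose with DL2 (log2 0.66) and DL6 (0.52, a call lost without any 1 of its 4 libraries, adjusted p = 0.0557 to 0.154). It fell with DHMG (-0.6, adjusted p = 0.00254, and 0.0575 without DHMG replicate 2). Mxi1, a partner of Max that opposes Myc, fell with WT from 56 and 46.8 to 32.9 and 36.2 CPM (log2 -0.59, adjusted p = 5.57e-05) and was not called with the other 5 constructs. Bnip3l, a close relative of Bnip3, fell with DL1 (-0.51, adjusted p = 0.00493, and 0.0501 and 0.0947 without EV replicate 1 or DL1 replicate 1) and DHMG (-0.62, adjusted p = 0.00215). Of the 8 reporters tested 5 were lower with WT, 5 with DL1 and 7 with DHMG, and 4, 3 and 3 were higher with DL2, DL6 and DL7. Ak4, a mitochondrial adenylate kinase, had reads in 1 of the 14 libraries.

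**Figure D2:**
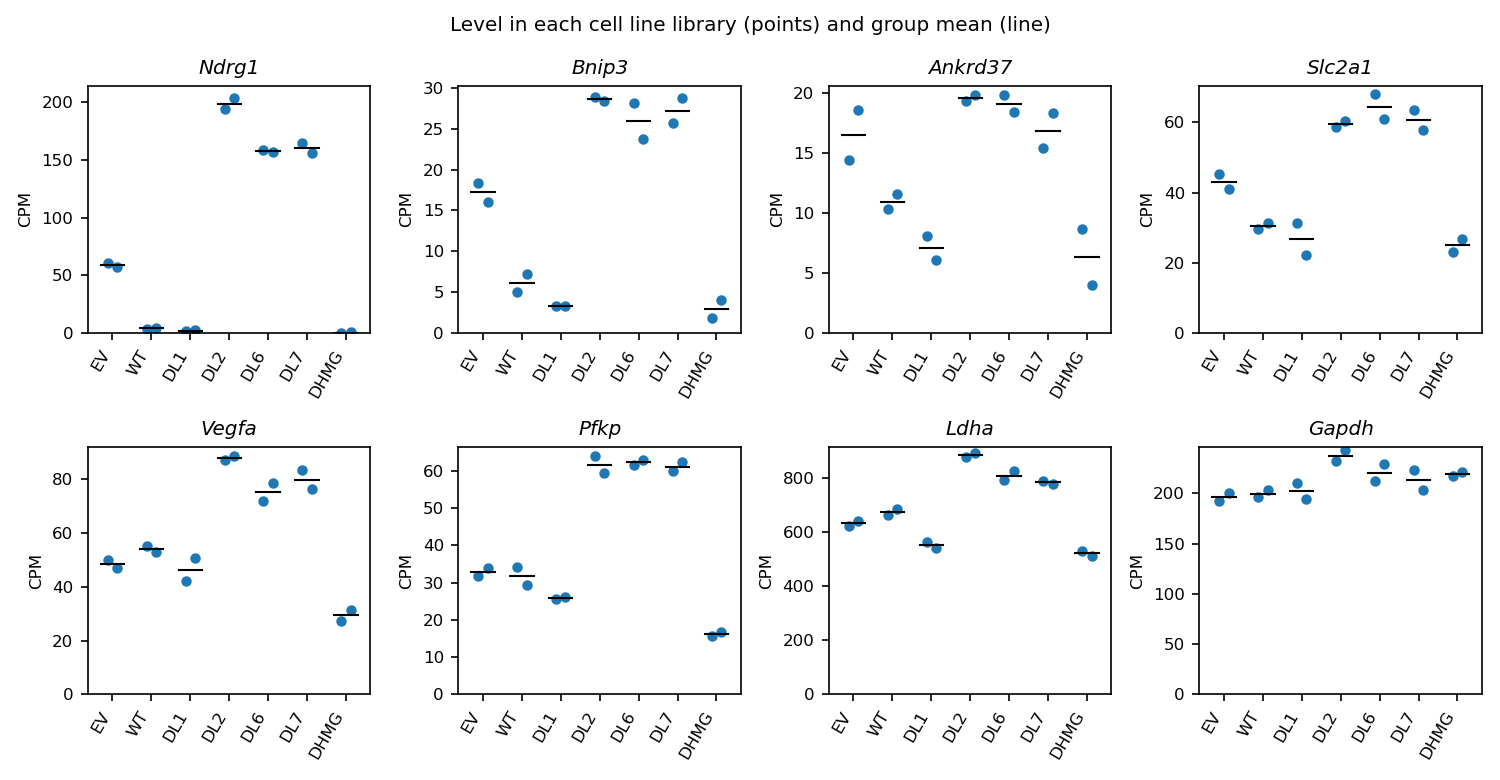
Level of 8 members in CPM (vertical axis, from 0) in each of the 2 libraries (points) of the 7 cell line groups, with the group mean as a bar. Ndrg1 runs from 0 and 0.305 CPM with DHMG to 194 and 204 with DL2, while Gapdh stays between 192 and 243 CPM in all 14 libraries.

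Egln1 and Egln3 are oxygen sensors that HIF induces and that in turn mark it for destruction. They were read together with P4ha1 and Ero1l, which have other roles. As a group these genes moved with the reporters only in part. Of Egln1, Egln3, P4ha1 and Ero1l, 4, 4 and 3 were higher with DL2, DL6 and DL7. With WT, DL1 and DHMG, 1, 2 and 4 of them were lower. Egln3 (PHD3) was at 101 and 95.4 CPM with EV, 139 and 143 with DL2, 127 and 124 with DL6 and 61.4 and 65.2 with DHMG, with no overlap between these groups. The log2 changes were 0.52 (adjusted p = 2.76e-06), 0.35 (0.00456) and -0.64 (4.92e-07), each SE 0.07 to 0.09, and the DL6 call ended without EV replicate 2 or either DL6 replicate (adjusted p = 0.0533 to 0.144). Egln1 (PHD2) rose with DL2 (0.42, adjusted p = 3e-04), and its calls with WT, DL6, DL7 and DHMG were each lost without 3 or 4 of the libraries in turn.

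P4ha1, a subunit of the enzyme that hydroxylates collagen, lay at 114 and 112 CPM with EV and 157 in both libraries with DL2, and at 75.7 and 79.4 with DL1 and 79.2 and 72.2 with DHMG. It was higher with DL2, DL6 and DL7 (log2 0.47, 0.42 and 0.45) and lower with DL1 (-0.55) and DHMG (-0.57), each SE 0.07 to 0.08 and kept with any library left out. Ero1l, an oxidase that forms disulfide bonds in the endoplasmic reticulum, rose with DL2 (0.6, adjusted p = 8.56e-05) and fell with DHMG (-0.59, adjusted p = 7.23e-04, and 0.113 without DHMG replicate 2). It was at 47.1 and 50.5 CPM with EV and 47.3 and 46.2 with WT, which were not called apart.

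Of the genes that carry fuel in and decide where pyruvate goes, Slc2a1 (GLUT1), the main glucose transporter of dividing T cells, went from 45.3 and 41 CPM with EV to 29.6 and 31.3 with WT. It was 31.3 and 22.2 with DL1, 23 and 26.8 with DHMG, 58.8 and 60.5 with DL2, 68.1 and 60.9 with DL6 and 63.5 and 57.9 with DL7. No library of a construct overlapped EV. The log2 changes were -0.51, -0.64 and -0.8 for WT, DL1 and DHMG (adjusted p = 0.0011, 1.89e-04 and 4.98e-05) and 0.46, 0.58 and 0.5 for DL2, DL6 and DL7 (adjusted p = 0.00804, 0.00115 and 0.00384), with SE 0.11 to 0.14. The WT call ended without EV replicate 1 (adjusted p = 0.0503). The DL2 call ended without EV replicate 2 or either DL2 replicate, and the DL6 and DL7 calls without EV replicate 2 or the construct's replicate 1 (adjusted p = 0.0734 to 0.174).

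Slc2a3 (GLUT3), a transporter with higher affinity, did not follow. It ranged from 46.3 to 62.4 CPM over the 14 libraries, and its 1 call, a rise with DL1 (log2 0.27, adjusted p = 0.0462), was lost without any 1 of the 4 libraries (adjusted p = 0.101 to 0.192). Ldha, which turns pyruvate into lactate, was at 624 and 641 CPM with EV. DL2 (877 and 894), DL6 (792 and 825) and DL7 (791 and 778) lay wholly above it, and DL1 (562 and 543) and DHMG (532 and 512) wholly below. All 5 were called (log2 0.48, 0.35, 0.31, -0.19 and -0.28, SE 0.05). The DL1 call ended without EV replicate 2 (adjusted p = 0.101). With WT, Ldha was at 663 and 685 CPM and not called.

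Pdk1 encodes a kinase that holds back pyruvate dehydrogenase in the mitochondria. Pdk1 fell with WT from 136 and 129 to 109 and 107 CPM (log2 -0.3, adjusted p = 0.00168, lost without EV replicate 1). It was lower with DL1 too (-0.28, lost without EV replicate 1, adjusted p = 0.149), and its rise with DL2 (0.23) was lost without any 1 of the 4 libraries. Slc16a3, a lactate exporter, had reads in 1 of 14 libraries, at 0.135 CPM.

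Among the 12 glycolytic enzymes tested, 11 were higher with DL2, 10 with DL6 and 10 with DL7, and 6, 7 and 7 were lower with WT, DL1 and DHMG. Pfkp, the platelet form of phosphofructokinase, changed most. It was at 31.7 and 33.8 CPM with EV and 15.7 and 16.8 with DHMG, and DL2 (63.9 and 59.5), DL6 (61.7 and 62.9) and DL7 (60 and 62.4) lay near each other. The log2 changes were 0.92, 0.93, 0.9 and -1.01 (SE 0.1 to 0.15, adjusted p = 2.11e-08, 2.5e-08, 3.63e-08 and 1.7e-06), kept with any library left out. With WT, Pfkp was at 34.2 and 29.4 CPM and not called.

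Pfkl, the liver form, was also lower with WT. It stood at 250 and 248 CPM with EV, 200 and 195 with WT, 186 and 184 with DL1, 164 and 162 with DHMG and 313 to 350 with DL2, DL6 and DL7. All 6 changes were called (log2 -0.33, -0.43, -0.61, 0.41, 0.33 and 0.41, SE 0.06) and kept with any library left out. Aldoa, the main aldolase, rose from 475 and 466 to 727 and 723 CPM with DL2 (log2 0.62, adjusted p = 2.55e-11), to 616 and 637 with DL6 and to 645 and 608 with DL7, and fell to 352 and 367 with DHMG (-0.39). Pgk1, which makes the first ATP of the pathway, rose with DL2, DL6 and DL7 (log2 0.6, 0.41 and 0.46), the DL6 call ending without replicate 2 of EV or of DL6 (adjusted p = 0.0659 and 0.0803).

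Hk1 departed from the others. This hexokinase was higher than EV with WT (log2 0.35, adjusted p = 3.73e-05) and DL1 (0.35) as well as with DL2 (0.45), DL6 (0.24) and DL7 (0.29), at 164 and 155 CPM with EV and 203 and 204 with WT. Its calls with DL6 were lost without any 1 library (adjusted p = 0.172 to 0.448) and with DL7 without EV replicate 2 or DL7 replicate 2. Hk2, the hexokinase that HIF and Myc are known to induce, was lower with WT (-0.32, adjusted p = 5.19e-04) and DL1 (-0.3, lost without EV replicate 1, adjusted p = 0.0568), at 116 and 115 CPM with EV and 91.4 and 93.8 with WT. Gapdh was called with DL2 alone (0.27, adjusted p = 0.00404, and 0.121 and 0.0778 without EV replicate 1 or DL2 replicate 2).

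Eno1, Gpi1 and Pkm, the enolase, the isomerase and the pyruvate kinase of the pathway, fell with WT by 0.33, 0.34 and 0.25 on the log2 scale and with DL2 were 0.38, 0.2 and 0.33 higher. The Gpi1 rise was lost without any 1 of its 4 libraries. Tpi1, which converts the triose phosphates, rose by 0.49 with DL2, 0.28 with DL6 and 0.32 with DL7, and Pgam1, a mutase, by 0.53 with DL2 and 0.55 with DL6. The Tpi1 call with DL7 ended without EV replicate 2 (adjusted p = 0.214), and its call with DL6 and both Pgam1 calls ended without 3 of the libraries in turn. Processed copies of some enzymes take reads of their own. Those counted for Eno1b came to 13% to 22% of the Eno1 reads in the line and 1.41% to 2.37% in primary cells, so Eno1 is uncertain there, and copies of Pgam1 came to at most 5.28%. Pfkfb3, which makes the allosteric activator of phosphofructokinase, fell with WT (-0.57), DL1 (-0.51) and DHMG (-0.48), and its rises with DL2 and DL7 were lost without any 1 library. Pfkfb4, a related enzyme, had 0 to 2.73 CPM in the line and was not called.

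Against WT, members were higher with DL2, DL6 and DL7. With DL2 27 of 30 members were higher and 0 lower (6.86% and 4.53% of all genes), with DL6 26 and 0 (11.3% and 10.2%) and with DL7 24 and 0 (15.4% and 15%). The exceptions were Slc2a3, Hk1 and Pfkfb4 with all 3, Gapdh with DL6 and DL7, and Bnip3l and Pgam1 with DL7. These comparisons share the WT libraries. In the order DL2, DL6 and DL7, Bnip3 was 4.81-fold, 4.36-fold and 4.53-fold higher, Slc2a1 1.96-fold, 2.12-fold and 2.01-fold and Pfkp 1.93-fold, 1.95-fold and 1.91-fold. Ndrg1 again had the largest ratios of the members, 52.8, 42 and 42.8. The medians of the members were 0.66, 0.53 and 0.55 on the log2 scale, and calls kept with any 1 library left out numbered 23, 24 and 23.

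DL1 and DHMG stayed near or below WT. With DL1 2 members were higher and 4 lower than with WT (6.74% and 4.03% of all genes). The members lower were Ldha, P4ha1, Ndrg1 and Bnip3 and those higher Mxi1 and Egln1, of which Ldha (log2 -0.28, adjusted p = 3.64e-05) and P4ha1 (-0.38) kept their calls with any 1 library left out. The total of 6 was 3 and 2 without WT replicates 1 and 2. With DHMG 0 were higher and 14 lower (9.21% and 5.59%), and 8 kept their calls with any 1 library left out. The total was 9 without WT replicate 2. Pfkp (-0.98), Vegfa (-0.89), Ldha (-0.37) and Aldoa (-0.36) were among the 14. Ndrg1 had 1 read with DHMG against 55 with WT, a ratio of 26.6 with a 95% interval of 4.58 to 1069 for counting error.

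Other genes of the pathway were read for the same constructs. RNA of HIF's oxygen-regulated subunit Hif1a was at 156 and 165 CPM with EV and 140 to 185 over the line, with no call with WT (log2 0.02, adjusted p = 0.857). Epas1, which encodes a related subunit, had reads in 1 of the 14 libraries. Crebbp, a coactivator of HIF and many other factors, fell with WT from 189 and 186 to 112 and 102 CPM (-0.81, adjusted p = 5.17e-13). Of 11 genes tested that make or regulate HIF, 1 was higher and 2 lower with WT, beside 12.3% and 12.6% of all genes. The others called were Ep300, a second coactivator (-0.28), and Cul2 (0.25), a scaffold of the ligase that destroys HIF.

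Of low-oxygen targets outside the members 28 were tested. With WT 3 were higher and 4 lower, with DL1 0 and 4, with DHMG 2 and 9, and with DL2, DL6 and DL7 2, 2 and 4 were higher and 0 lower. All genes gave 12.3% higher and 12.6% lower with WT, 5.12% lower with DL1, 7.47% lower with DHMG, and 2.36%, 0.704% and 1.56% higher with DL2, DL6 and DL7. With WT both counts lay near those shares. Among the genes called lower, Ccng2, a cyclin of resting cells, fell with WT, DL1 and DHMG (-1.12, -1.02 and -1.38), and so did Stc2 (-0.41, -0.59 and -0.87), Bhlhe40 (-0.57, -0.53 and -1.08) and Kdm4b (-0.65, -0.48 and -0.69). The 3 higher with WT and the 2 higher with DHMG are not named here. Fam162a rose with DL2 (0.52) and DL6 (0.37). Of 10 other glycolysis genes 1 was higher and 1 lower with WT, and 0 were called with DL2.

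A list of pyruvate entry and the citric acid cycle, which also held Cox4i1 of the respiratory chain, had 23 genes tested. Of these, 12 were higher and 1 lower with WT, with a median of 0.22. Of all genes 12.3% were higher and 12.6% lower with WT. Idh3a (0.51), Fh1 (0.46), Cox4i1 (0.48) and Mpc1 (0.7) were among the higher, which are a dehydrogenase and the fumarase of the cycle, a subunit of cytochrome oxidase and a carrier of pyruvate. With DL1 5 and with DHMG 9 were higher and 0 lower (5.86% and 9.64% of all genes higher). With DL2 1 was higher (2.36% of all genes), and with DL6 and DL7 0 were called either way. Against WT 13 were lower and 0 higher with DL6 and again with DL7, beside 10.2% and 15% of all genes lower. Of 15 integrated stress response genes 8 were higher and 1 lower with WT, beside 12.3% and 12.6% of all genes. Psat1 (0.7) and Atf4 (0.32) were among the higher. Myc itself was called with DL2 (0.2, adjusted p = 0.0185). Of 9 genes of its network 1 was higher and 3 lower with WT, beside the same 12.3% and 12.6% of all genes. Mxd4 (-0.81) and Mnt (-0.58), which oppose Myc, were among the lower.

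In DN1 cells with P45, 2 of 34 members were higher and 3 lower than with EV, beside 1.75% and 5.72% of all 15010 genes. The members' median log2 change was 0.02. Ndrg1, so variable in the line, was at 64.2 and 64.4 CPM with EV, 73.1 and 66.4 with P45, 66.6 and 70.8 with L1d, 68.8 and 73 with L7d and 59.6 and 63.9 with HMGd, with no call. Mxi1 fell with the full-length form in both systems, by 0.59 on the log2 scale in the line and by 0.85 in DN1 cells, with both calls kept whichever library was left out. The test of the difference of the 2 WT effects, in a joint fit, gave a log2 difference of -4.09 for Ndrg1 (line minus DN1, SE 0.18, adjusted p = 5.47e-14).

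That test called 8 members, 2 with a higher effect in the line and 6 with a lower one, beside 3.06% and 3.77% of all genes, and for the other members no difference was shown. The joint fit used 1 shared spread, a common coefficient of variation of 7.76%. Separate fits gave 4.48% for the line and 9.2% for primary cells. The systems also differed in time (72 h after transduction and 7 days of culture) and in the rise of Tcf7 (3.17-fold and 170-fold). The part of these in the differences was not tested. Bnip3 fell in the line and rose in DN1 cells, from 28.8 and 33.3 to 46.3 and 39.3 CPM (log2 0.46, adjusted p = 0.0186), a difference of -2.01. That rise was lost without replicate 1 of EV or of P45 (adjusted p = 0.245 and 0.244). Slc2a3 differed by 1.6 and Hk1 by 0.46, both higher in the line, and Pfkfb3, Kdm3a, Pfkl and Pdk1 by -0.57, -0.55, -0.51 and -0.47. All but Pdk1 kept the call with any 1 of 8 samples left out, and the Pdk1 call ended without 7 of the 8 in turn (adjusted p = 0.0625 to 0.195).

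In DN1 cells with P45, Slc2a3 was the member with the largest fall and Aldoc the one with the largest rise. Slc2a3 was at 205 and 199 CPM with EV, 163 and 176 with HMGd, 145 and 150 with L1d, 96.8 and 125 with L7d and 74.9 and 74.4 with P45, and no 2 of these groups overlapped. The P45 level was 2.71-fold lower than EV (log2 -1.44, SE 0.14, adjusted p = 1.62e-05) and the L7d level 1.82-fold lower (adjusted p = 0.00232). L1d (-0.46) and HMGd (-0.26) were not called against EV, and both were higher than P45, 1.97-fold and 2.27-fold (adjusted p = 0.00431 and 1.96e-04).

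Pfkfb4 and Mxi1 had the same order of group means, with HMGd and L1d overlapping at Mxi1. Pfkfb4 was at 70 and 65.9 CPM with EV, 55.5 and 55.9 with HMGd, 46.3 and 50.6 with L1d, 41.6 and 44.5 with L7d and 32.2 and 34.7 with P45 (P45 against EV log2 -1.02, SE 0.11, adjusted p = 3.59e-05). Mxi1 was at 116 and 129 CPM with EV, 112 and 114 with HMGd, 99 and 114 with L1d, 79.4 and 83.8 with L7d and 64.8 and 71.5 with P45 (P45 against EV log2 -0.85, SE 0.08, adjusted p = 1.31e-05). L7d was lower than EV at both (-0.66 and -0.59), the Pfkfb4 call ending without EV replicate 1 (adjusted p = 0.0572). The summed granulocyte and monocyte markers had that order too, at 42523 and 41437 CPM with EV, 35932 and 34649 with HMGd, 31168 and 32040 with L1d, 26832 and 24717 with L7d and 18904 and 21408 with P45, with 11 of 18 lower and 0 higher in P45 against EV. Of 12 mast cell, basophil and eosinophil genes 7 were lower and 1 higher, and they summed to 537 and 736 CPM with EV and 167 and 194 with P45. The part of either list in the falls of Slc2a3, Pfkfb4 and Mxi1 was not tested.

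Aldoc, a minor aldolase, moved the other way, from 5.81 and 7.46 CPM with EV to 19.7 and 16.4 with P45 (2.73-fold, log2 SE 0.17, adjusted p = 6.29e-05). It was 12.1 and 11.2 with L7d (a call lost without EV replicate 1 or either L7d replicate, adjusted p = 0.0527 to 0.207), 9.77 and 13.6 with L1d and 6.59 and 6.29 with HMGd. Aldoc made up 0.504% to 1.58% of aldolase RNA per length in DN1.

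The remaining DN1 comparisons were sparse. With L7d 1 member was higher and 4 lower than EV (1.7% and 3.3% of all genes), the fourth being Eno1 (-0.43), whose call was lost without any 1 of its 4 samples. The total of 5 was 2 without EV replicate 1 and 3 without either L7d replicate. With L1d 0 were called (0.2% of genes higher and 0.273% lower), with 5 at an unadjusted p under 0.05 and 2 by DESeq2. With HMGd 0 were called by edgeR (0.00666% higher and 0% lower), with 6 at an unadjusted p under 0.05, 0 by DESeq2 and 4, all lower, without HMGd replicate 1. The 2 HMGd replicates lay apart at enzymes, at 942 and 725 CPM for Gapdh and 598 and 446 for Eno1, where EV was at 898 and 936 and at 610 and 625.

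Against P45, L1d had 3 members higher and 0 lower (1.22% and 0.113% of genes), Slc2a3, Mxi1 and Pfkfb4. The total of 3 was 0 without L1d replicate 2 or P45 replicate 1 and 1 without P45 replicate 2. L7d had 0 called by edgeR (0.00666% and 0%), with 6 at an unadjusted p under 0.05 and 1 by DESeq2. HMGd had 3 higher and 2 lower (3.72% and 1.16%), the same 3 higher and Aldoc (-1.48) and Bnip3 (-0.71) lower, all kept with any 1 sample left out. Without HMGd replicate 1 the 3 higher and 2 lower became 3 higher and 10 lower, so the comparison turned mostly lower.

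**Figure D3:**
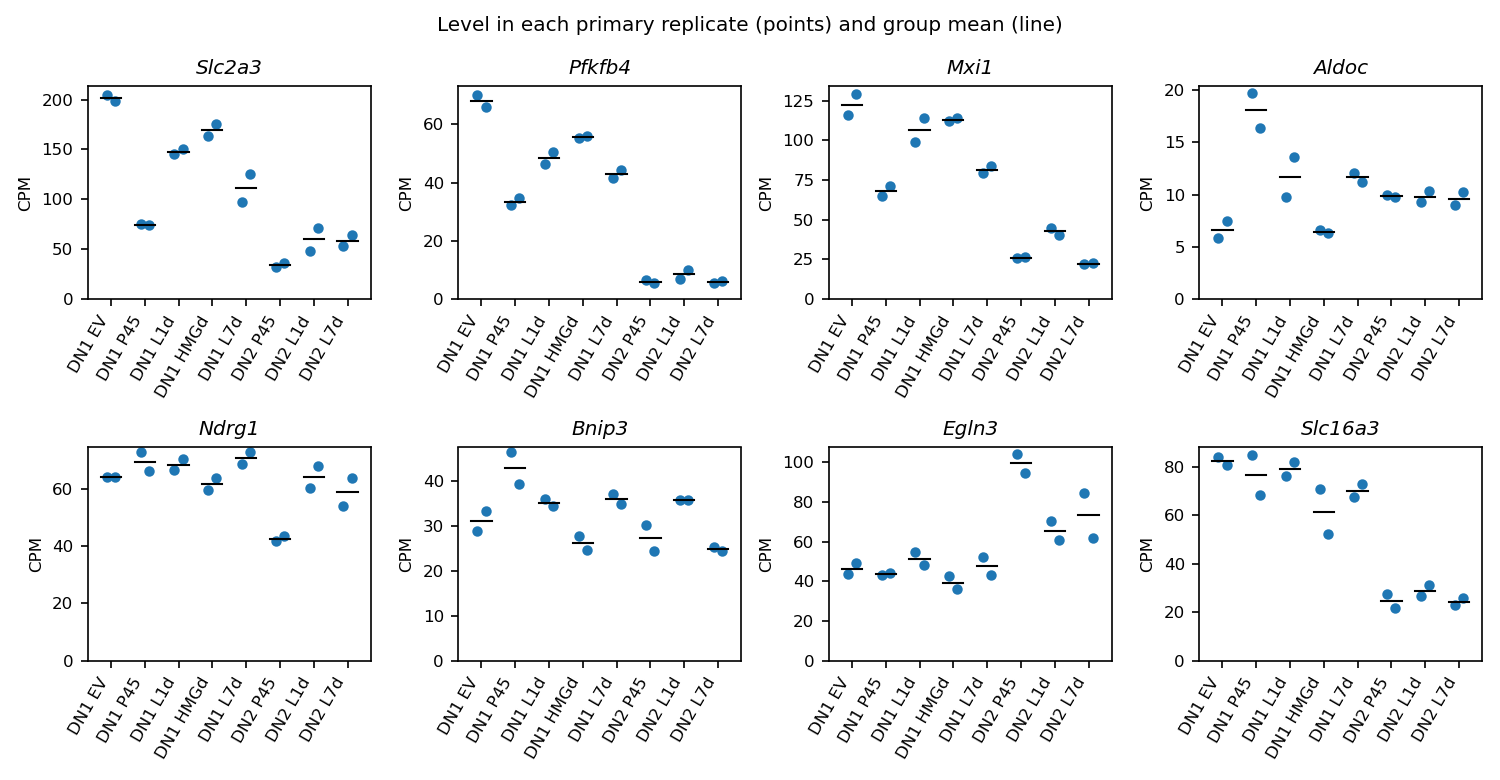
Level of 8 members in CPM (vertical axis, from 0) in each of the 2 replicates (points) of the 8 primary groups, with the group mean as a bar. Slc2a3, Pfkfb4 and Mxi1 are highest in DN1 cells with EV and lowest in DN2 cells, Ndrg1 stays between 59.6 and 73.1 CPM in DN1, and Egln3 is highest in DN2 cells with P45 (104 and 94.7 CPM).

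In DN2 cells, 4 of 9 reporters were higher with L1d than with P45, 0 were lower and 5 were not called. Ndrg1 was at 60.5 and 68.2 CPM against 41.9 and 43.5 (log2 0.59, SE 0.09, adjusted p = 6.63e-04), Mxi1 at 44.7 and 40.5 against 25.7 and 26.6 (0.7, adjusted p = 1.89e-04) and Vegfa at 47 and 47.1 against 36.1 and 36.7 (0.37, adjusted p = 0.00327). These groups did not overlap, and these 3 calls were kept with any 1 sample left out. Among those not called, Ankrd37 was at 3.39 and 3.51 CPM against 5.09 and 6.2. In all 8 of 34 members were higher and 1 lower, beside 8.05% and 2.8% of all genes. The other higher members were Slc2a3 (0.81), Pfkfb4 (0.51), Bnip3 (0.39), Pfkfb3 (0.3) and Hk1 (0.26).

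Egln3 was the lower one (-0.61, adjusted p = 0.0102), at 70.2 and 60.7 CPM against 104 and 94.7. These 6 calls were lost without 2 to 4 of the samples in turn, and the total of 9 was 3 without L1d replicate 2, 4 without P45 replicate 1 and 5 without P45 replicate 2. In the same comparison the granulocyte and monocyte markers summed to 5301 and 4942 CPM with L1d against 2077 and 2144 with P45, with 14 of 18 higher and 0 lower. Of 15 T lineage genes 11 were lower and 0 higher. Feeder markers were at 96.7 and 501 CPM in the 2 L1d replicates, where P4ha2, a collagen hydroxylase subunit, was at 0.391 and 4.49 CPM. The part of these lists in the members' changes was not tested.

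With L7d in DN2 cells 2 members were higher than with P45 and 0 lower (0.24% and 0.0533% of all genes). They were Slc2a3, at 52.8 and 64.5 CPM against 32.5 and 36 (log2 0.78, adjusted p = 0.0488), and Ndrg1, at 54.1 and 63.9 against 41.9 and 43.5 (0.47, adjusted p = 0.0462). Both calls ended without L7d replicate 2 or either P45 replicate (adjusted p = 0.182 to 0.541), which left 0 members called. Granulocyte and monocyte markers summed to 1402 and 2460 CPM with L7d, and 0 of 18 were called.

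Between the stages more members fell than rose. With P45, 21 of 34 were lower in DN2 than in DN1 and 3 higher, beside 22.6% and 20.6% of all genes, with a median log2 change of -0.37. With L1d 17 were lower and 2 higher (19.7% and 20.1% of genes) and with L7d 19 and 3 (21.8% and 19.5%), with medians of -0.28 and -0.32. The sums of granulocyte and monocyte markers fell alongside, with 18 of 18 lower for P45, 17 for L1d and 18 for L7d. Markers of the OP9 feeder cells, 12 genes, summed to 263 and 385 CPM in DN1 and 136 and 314 in DN2 with P45, 399 and 739 against 96.7 and 501 with L1d, and 443 and 339 against 110 and 156 with L7d. The part of either list was not tested. Calls kept with any 1 sample left out numbered 19 of 24, 12 of 19 and 14 of 22.

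Pfkfb4 fell most, from 32.2 and 34.7 CPM in DN1 to 6.52 and 5.35 in DN2 with P45 (5.64-fold, log2 SE 0.13, adjusted p = 1.36e-09). Slc16a3 went from 84.7 and 68.1 to 27.6 and 21.6 (3.1-fold, SE 0.14, adjusted p = 3.02e-07), Mxi1 fell 2.61-fold, Ero1l 2.2-fold, Slc2a3 2.18-fold and Vegfa 2.06-fold. None of these DN1 and DN2 groups overlapped. Among the enzymes 10 of 13 fell with P45, Eno1 1.76-fold, Gpi1 1.7-fold, Aldoa 1.47-fold and Pkm 1.34-fold, while Hk1 (log2 -0.1), Pfkl (-0.01) and Tpi1 were not called, nor was Ldha (0.17). The P45 calls of P4ha1, Hk2, Pfkp, Gapdh and Pgk1 were lost without 2 to 4 of the samples in turn.

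The sensor Egln3 rose, from 42.9 and 44 to 104 and 94.7 CPM with P45 (2.29-fold, SE 0.14, adjusted p = 4.35e-06), and was 0.62 higher on the log2 scale with L7d and not called with L1d. Pdk1 rose with all 3 forms (0.56, 0.4 and 0.42), its calls with L1d and L7d each ending without 2 of the samples in turn. Egln1 rose with P45 (log2 0.25) and L7d (0.18, lost without 3 of the samples in turn). Outside the members, 5 low-oxygen targets were higher and 16 lower of 33 with P45, and of 15 other glycolysis genes 4 were higher and 6 lower. Of all genes 20.6% were higher and 22.6% lower in that comparison. Arnt2, a subunit that can pair with HIF, was 60.7-fold higher in DN2 cells with P45, and Hk3, a hexokinase of myeloid cells, was 3.72-fold lower.

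The shares of isoenzymes were set side by side for the line and the primary cells. Aldoa (98.4% to 100% of its family), Eno1 (90.5% to 99.9%), Ldha (68.7% to 98.9%), Pfkl (57.6% to 72.9%) and Slc16a1 (56.2% to 100%) were the main form in every replicate of the line, DN1 and DN2. Hexokinases and pyruvate dehydrogenase kinases had other main forms in the line than in DN1. Among PFKFB enzymes Pfkfb3 led in the line and in DN1 with P45, L1d and L7d. In DN1 with EV and HMGd, Pfkfb4 led, with means of 57% and 54%. Shares here are per exon length and within each replicate, so they compare genes. Slc16a3 made up 31.3% to 43.8% of the 2 lactate transporters counted in DN1, 12.8% to 17.9% in DN2 and 0% to 0.0311% in the line, the rest being Slc16a1. Hk3 was 45.1% to 49.3% of hexokinase RNA in DN1, 14.5% to 29.4% in DN2 and 0% to 0.657% in the line. Hk1 was 48.5% to 60.8% in the line and Hk2 39% to 51.4%. There Hk2 led with EV and DL6 and in replicate 1 of DL7, and Hk1 led in the rest.

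Pfkfb4 was 38.7% to 58.7% of its family in DN1, 8.79% to 12.7% in DN2 and 0% to 5.37% in the line, where Pfkfb3 held 61.3% to 79.3%. Pfkp was 26.4% to 28.9% of phosphofructokinase RNA in DN1, 22.4% to 24.8% in DN2 and 2.75% to 6.97% in the line. Pdk1 was 53.1% to 68.8% of its family in the line and 13.1% to 18.2% in DN1, where Pdk3 held 81.1% to 86%. Slc2a3 ranged from 30.4% to 61.8% of the 2 glucose transporters in DN1, being 30.4% and 32.8% with P45 and 55.5% and 56.3% with EV. These ranges come from libraries of different cells that were not tested against each other.

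**Figure D4:**
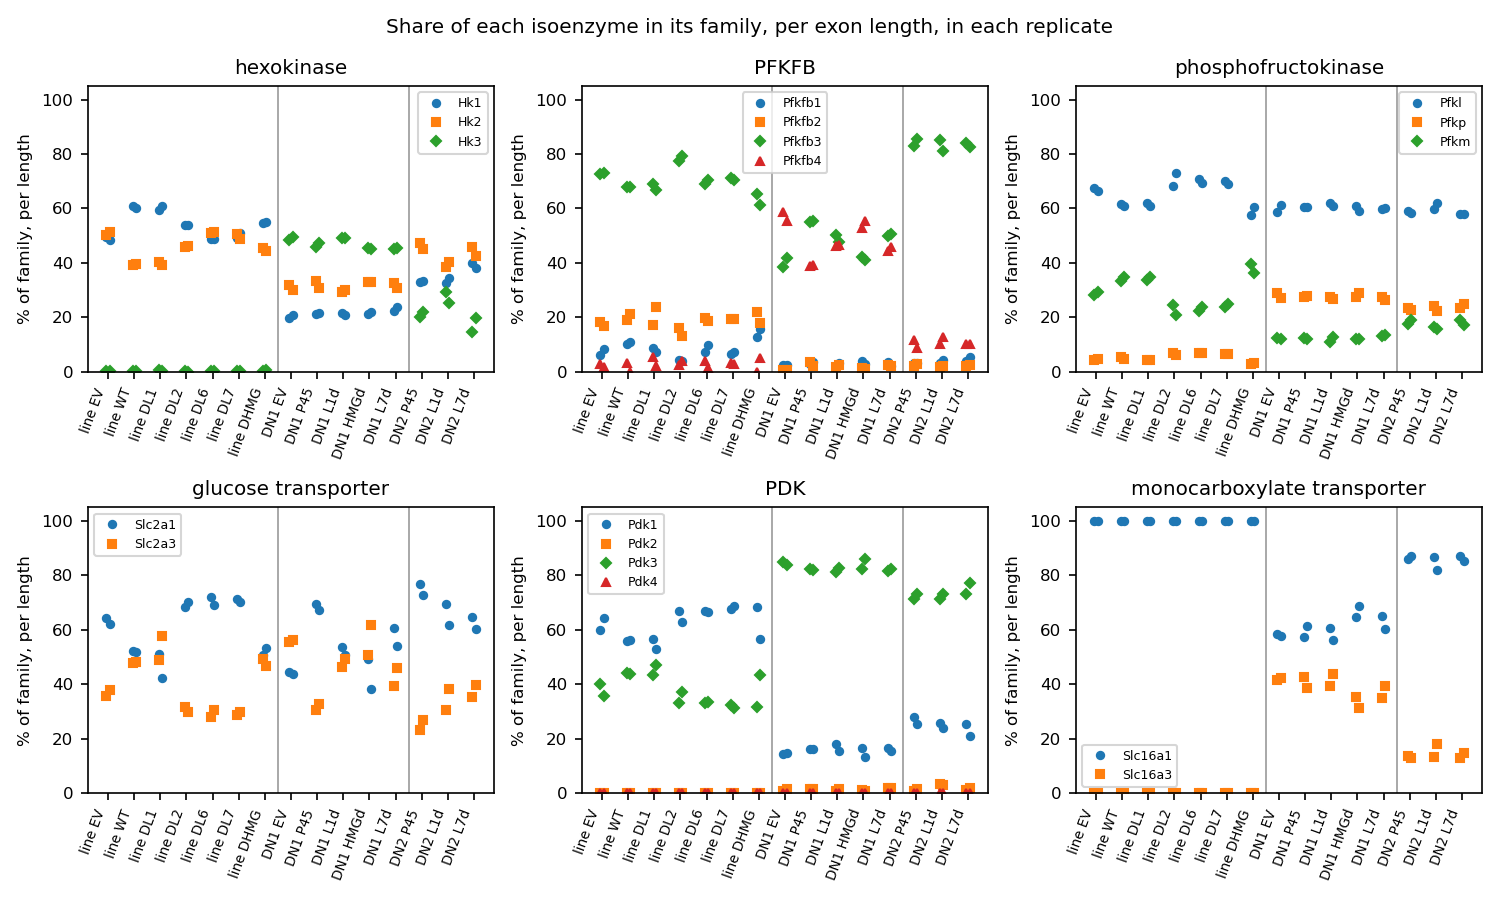
Share of each isoenzyme in its family (percent, per exon length, vertical axis) in both replicates (points) of the 7 cell line, 5 DN1 and 3 DN2 groups, divided by grey lines. Hk3, Pfkfb4, Pfkp and Slc16a3 hold larger shares in DN1 than in the line, and Pdk1 a larger one in the line.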

How the data were processed

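RNA was made into stranded total RNA libraries and sequenced in pairs of 38 and 37 bases, per the labels' protocols. The authors deposited raw counts of reads per gene for each library; the submitters' processing notes name STAR 2.5.0a, HTSeq 0.6.1 and the GRCm38 build, and the annotation release is not given in the sources used here. The reverse-strand column was used. Of 59 libraries 58 were used; 1 DN1 L1d file that lists 14312 genes was left out. Primary libraries of 1 replicate number were summed. Symbols came from the GENCODE M21 annotation. Counts were tested with edgeR 4.0.16 (quasi-likelihood, TMM, filterByExpr, prior count 0.125) in R 4.3.3, in 1 fit for the cell line (10939 genes), 1 for primary cells (15010) and 1 joint fit (15069), over 24 comparisons with Benjamini-Hochberg adjustment over all genes of a fit. DESeq2 1.42.0 was an alternative, among others given in the closing section. In counts simulated for WT against EV of the line, the test recovered 54.2% of genes changed 1.5-fold and 79.6% of those changed 2-fold. For P45 against EV in DN1 it recovered 51% and 63.3%. Each simulation changed 200 genes, and genes left unchanged were called 19 times in the line and 9 times in DN1. Members and lists were chosen with earlier results of these data known. All 34 members were eligible to be named, at most 4 called genes of each other list, the HIF genes, and Tcf7 as a check of labels; Epas1, Mxd4, Mnt, Cd3e, Ptcra, Il2ra, Elane and Kdm5d are named as markers or list genes.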

Additional observations from a re-analysis of the deposited data

Results flagged for a closer look

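For 8 members the effect of full-length TCF-1 against EV differed between the cell line and DN1 cells in a direct test of the difference (edgeR, Benjamini-Hochberg over all genes of the joint fit). That fit shared 1 spread between the 2 systems, whose separate fits gave common coefficients of variation of 4.48% (line) and 9.2% (primary cells). On the log2 scale, line minus DN1, the difference was -4.092 for Ndrg1, -2.008 for Bnip3, -0.571 for Pfkfb3, -0.547 for Kdm3a, -0.514 for Pfkl and -0.47 for Pdk1. It was 1.597 for Slc2a3 and 0.46 for Hk1. All but the Pdk1 difference kept the call with any 1 of the 8 samples left out.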

How the results depend on the processing

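No named member's call changed sign under any setting tried, but the balance of calls turned in 2 comparisons. DN1 HMGd against P45, with 3 higher and 2 lower, had 3 and 9 with no filter on low counts, 3 and 4 with a replicate block, 3 and 10 with T libraries as replicates and 3 and 10 without HMGd replicate 1. DN2 L7d against P45, with 2 higher and 0 lower, had 3 and 8 with T libraries. No scaling moved the median of all genes by more than 0.035 (log2). Outside the fits that leave out a replicate, 2687 of 2810 member calls and their alternatives stayed on the same side of the threshold and 123 lost the call; with a replicate left out 1026 of 1300 stayed and 274 lost it, none with a change of sign. These counts pair each call of the main fits with each setting, and members that gain a call under a setting are not in them. The cause of the moves below was not tested.

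With DESeq2 the members called were 12 for DL6 against EV, 9 for DHMG against WT, 2 for DN1 L1d against EV and 1 for DN1 L7d against P45. With only the groups compared in the fit they were 11 for DL1 against EV, 2 for DL1 against WT, 8 for DN1 P45, 3 for DN1 L1d against EV, 2 for DN1 L7d against P45, 4 for DN2 L1d and 0 for DN2 L7d against P45, and 13 for the difference between systems. With no filter on low counts they were 3 for DN1 L1d and 1 for DN1 HMGd against EV, 2 for DN1 L7d, 12 for DN1 HMGd and 4 for DN2 L7d against P45. DN1 L1d against EV had 1 with RLE size factors, 1 with a filter of 1 CPM in 2 libraries, 1 with counts ignoring strand and 1 without ribosomal and mitochondrial genes. DN2 L7d against P45 had 0 with RLE size factors and 0 without ribosomal and mitochondrial genes. With each library marked T in the labels as a replicate, which the labels do not explain, they were 13, 4, 12 and 6 for DN1 P45, L1d, L7d and HMGd against EV, 8, 7 and 13 for DN1 L1d, L7d and HMGd against P45, and 16 and 11 for DN2 L1d and L7d against P45.

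Leaving out 1 replicate gave 10 to 19 members for DL1, 8 to 11 for DL6 and 10 to 13 for DL7 against EV, 2 to 6 for DL1 and 9 to 11 for DHMG against WT. In DN1 it gave 2 to 4 for L7d and 0 to 4 for HMGd against EV, and 0 to 2 for L1d and 5 to 13 for HMGd against P45, and in DN2 3 to 8 for L1d and 0 to 3 for L7d. The lone remaining sample is assumed to vary like the other groups. Replicate numbers are only shared: deviations of same-numbered samples correlated at -0.02 to 0.02 in the line and 0.04 to 0.41 in primary cells, over 0.1 in 9 of 12 comparisons. With a replicate block DN1 L1d against EV had 2 members called, DN1 HMGd against P45 7, DHMG against WT 15, the stage comparisons 25, 21 and 24 for P45, L1d and L7d, and the difference between systems 9, and the other counts were as without it. Low read numbers limit Pfkfb4, Ankrd37 and Bnip3 in the line.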
